A study of Mus musculus with 54 samples.

Results

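Phase II conjugation is the step of drug and hormone metabolism in which an enzyme joins a polar group to a molecule so that it can leave the cell and be excreted. Glutathione S-transferases (GST) use glutathione, UDP-glucuronosyltransferases (UGT) use UDP-glucuronic acid, and sulfotransferases (SULT) use the sulfate donor PAPS. Hepatocytes hold high levels of these enzymes, and their genes are known targets of nuclear receptors, of the stress factor NRF2, of growth hormone and of the clock output factors DBP, TEF and HLF.

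The conjugation genes were taken by symbol from a table of expression in whole mouse liver: Gsta, Gstk, Gstm, Gsto, Gstp, Gstt or Gstz followed by a digit, Ugt followed by a digit, or Sult followed by a digit, with a mean above 0 FPKM. This gave 58 of the 24346 genes in the table, made up of 21 GST, 21 UGT and 16 SULT genes. Another 3 symbols had the pattern (Sult1c1, Sult2a3 and Sult2a4) but were listed at 0 in every liver. FPKM are fragments scaled by transcript length and by the fragments of the library, so levels can be set side by side between genes. Liver samples came from mice of 3 genotypes at 6 times of day, ZT0 to ZT20 every 4 h (ZT0 is lights on). There were 3 samples in each of 18 groups and 54 libraries in all. The labels do not say that the samples of a group came from separate mice, and each sample is called a liver here. In RE mice the core clock gene Bmal1 (Arntl) carried a floxed STOP together with Syt10-Cre, a driver used to restore Bmal1 in the suprachiasmatic nucleus, the clock of the brain. In KO mice Bmal1 carried the floxed STOP without that rescue, and WT mice had intact Bmal1. Age, sex, feeding and whether KO or WT mice also carried Cre are not given in the labels. RE and KO livers share the STOP allele, apart from any liver cell in which Syt10-Cre may have acted, and genotype and any other difference between the colonies cannot be told apart.

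Arntl had 7.60 to 15.5 FPKM in RE, 9.76 to 14.2 FPKM in KO and 0.202 to 10.3 FPKM in WT livers. No RE or KO liver lacked reads of this gene, and where the STOP lies relative to the counted reads is not given, so the level is no check of the labels. Dbp, a direct target of BMAL1, reached at most 2.42 FPKM in RE and 2.97 FPKM in KO livers, against 79.7 FPKM in WT livers. Hepatocyte markers without Alb summed to 21816 to 34735 FPKM in RE, 20574 to 26981 FPKM in KO and 24413 to 32998 FPKM in WT livers; Alb was listed at 0 in all 18 WT livers and in 3 others, and was not used. Over all genes tested 21.7% were called lower and 24.2% higher in RE than in WT livers, and 20.2% lower and 22.1% higher in KO than in WT livers (adjusted p under 0.05, limma). Markers of Kupffer cells, the resident macrophages, were called lower for 6 of 6 genes in RE and 3 of 6 in KO livers, with sums of 26.9 to 119 FPKM in RE, 36.4 to 132 FPKM in KO and 57.8 to 132 FPKM in WT livers. Small intestine markers were called lower for 4 of 8 genes in RE and 6 of 8 in KO livers, with sums of 40.7 to 194 FPKM in RE, 71.2 to 147 FPKM in KO and 120.0 to 334 FPKM in WT livers. The highest sum was that of 1 WT liver (ZT0, numbered 0), and Fabp2 and Anpep made up most of the sums. Reg3b, Reg3g, Alpi, Krt20 and Vil1 had WT medians of at most 0.0665 FPKM. Their highest WT values were 70.6, 24.9, 4.82, 3.35 and 3.43 FPKM in that order, so few livers set their WT means. Of the bile duct markers 2 of 5 (Sox9 and Spp1) were called higher in RE and in KO livers. The median sums were 64.2 FPKM in RE, 68.9 FPKM in KO and 27.5 FPKM in WT livers. Spp1 made up most of these sums, with medians of 59.9 FPKM in RE, 62.2 FPKM in KO and 22.8 FPKM in WT livers. Krt19, Krt7 and Epcam were not called. Their medians were 1.38, 0.720 and 0.407 FPKM in RE and 1.35, 0.725 and 0.341 FPKM in KO livers. In WT livers they were higher, at 1.53, 0.828 and 0.546 FPKM. Of the pancreas list Cela1 was the 1 gene tested, and was called higher by 1.41 in RE and 1.22 in KO livers (log2). Kidney markers summed to at most 0.238 FPKM in any liver. The part of these markers in the results was not tested, and in whole liver fewer cells of a type and less RNA per cell cannot be told apart.

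Each gene was tested on log2(FPKM + 1) with limma in 1 model of the 18 group means. P-values were adjusted over the 10932 genes whose mean reached 1 FPKM in 1 or more groups, and called means an adjusted p under 0.05. A level difference is the mean over the 6 times on that log2 scale. Of the 58 conjugation genes 43 were tested (19 GST, 16 UGT and 8 SULT), of which 40 passed the filter in all 3 genotypes. Sult1e1 passed through RE and KO groups alone, Gsta1 through KO and WT groups alone and Ugt1a10 through WT groups alone. The filter thus favoured a difference between a genotype that passed and one that did not. Gsta1 passed in KO livers through 1 liver at 9.73 FPKM, beside a KO median of 0.129 FPKM. The 15 genes left out had group means of at most 0.501 FPKM (Sult2b1). Among them Ugt8a averaged 0.0183 FPKM, Sult3a1 0.0181 FPKM, Sult4a1 0.00722 FPKM and Sult6b1 0.0161 FPKM over the 54 livers.

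The promoters printed here belong to genes on which the results turn. Sult1e1, Gstm2 and Ugt1a9 are SULT, GST and UGT genes whose RE and KO livers did not overlap WT livers, and Gstm1, Sult1b1, Gstm5 and Gsta3 hold a motif that was searched. Each is the 250 bases before a RefSeq transcription start on GRCm38.p6, 5′ to 3′ on the strand of the gene, in lower case. Capitals mark CACGTT and TATAAA in Gstm1, the reverse complement of ANTAGGTCA in Sult1b1, and TGACNNNGC in Gstm5 and Gsta3. Gstm1 and Sult1b1 have 2 RefSeq starts each, and the one with the motif is shown.
Sult1e1 (chr5:87591612-87591861, - strand): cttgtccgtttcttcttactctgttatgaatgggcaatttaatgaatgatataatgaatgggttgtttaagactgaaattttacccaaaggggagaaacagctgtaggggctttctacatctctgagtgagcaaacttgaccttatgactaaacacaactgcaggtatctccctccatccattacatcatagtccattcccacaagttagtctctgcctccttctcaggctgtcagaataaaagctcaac
Gstm2 (chr3:107986421-107986670, - strand): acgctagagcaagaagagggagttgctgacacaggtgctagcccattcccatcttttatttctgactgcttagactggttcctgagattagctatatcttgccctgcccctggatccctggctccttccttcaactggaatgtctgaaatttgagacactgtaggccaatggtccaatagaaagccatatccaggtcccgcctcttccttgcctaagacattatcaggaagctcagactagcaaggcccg
Ugt1a9 (chr1:88070529-88070778, + strand): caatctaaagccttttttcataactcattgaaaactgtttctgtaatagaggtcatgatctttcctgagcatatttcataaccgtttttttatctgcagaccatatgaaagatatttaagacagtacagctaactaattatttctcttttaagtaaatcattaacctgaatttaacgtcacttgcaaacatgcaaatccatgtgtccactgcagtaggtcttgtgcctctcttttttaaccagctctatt
Gstm1 (chr3:108017819-108018068, - strand): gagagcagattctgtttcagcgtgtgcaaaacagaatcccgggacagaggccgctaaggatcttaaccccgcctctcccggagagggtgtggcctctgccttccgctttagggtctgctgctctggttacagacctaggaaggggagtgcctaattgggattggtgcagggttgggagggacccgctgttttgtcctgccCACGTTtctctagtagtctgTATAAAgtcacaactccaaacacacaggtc
Sult1b1 (chr5:87538196-87538445, - strand): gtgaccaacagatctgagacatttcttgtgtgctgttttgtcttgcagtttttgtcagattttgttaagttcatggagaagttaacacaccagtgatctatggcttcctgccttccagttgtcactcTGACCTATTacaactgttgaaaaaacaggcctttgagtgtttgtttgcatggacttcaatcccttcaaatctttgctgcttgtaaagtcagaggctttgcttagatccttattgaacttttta
Gstm5 (chr3:107895604-107895853, + strand): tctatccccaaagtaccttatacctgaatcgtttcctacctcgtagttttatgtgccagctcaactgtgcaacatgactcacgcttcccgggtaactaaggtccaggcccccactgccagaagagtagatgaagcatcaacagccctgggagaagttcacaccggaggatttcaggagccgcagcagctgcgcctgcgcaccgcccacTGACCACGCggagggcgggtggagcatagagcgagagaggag
Gsta3 (chr1:21240335-21240584, + strand): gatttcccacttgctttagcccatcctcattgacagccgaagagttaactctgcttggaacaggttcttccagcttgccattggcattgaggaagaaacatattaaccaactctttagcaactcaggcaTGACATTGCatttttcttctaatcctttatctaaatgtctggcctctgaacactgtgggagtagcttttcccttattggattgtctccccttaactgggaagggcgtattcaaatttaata

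Motifs were searched on both strands in the 250 bases before 47 starts of 38 tested genes. The E-box CACGTG, the site of BMAL1 with CLOCK, was in none of the 47 windows, beside 6.02% of all 32851 promoter windows. Its variant CACGTT was in Gstm1, Gstp1, Gstp2 and Ugt2b35, beside 3.85% of all windows. In Gstm1 it lies 50 to 45 bases before the start, and a TATA box (TATAAA, in 5 of the genes and 12.4% of all windows) lies at 30 to 25. The element ANTAGGTCA of the ROR and REV-ERB receptors was in Sult1b1, beside 0.548% of all windows, and the D-box TTATGTAA of DBP, TEF and HLF was in Ugt2b1, beside 0.819%. The antioxidant response element TGACNNNGC was in Gsta3, Gstm5 and Gstm7, beside 10.2% of all windows. The STAT5 element TTCNNNGAA was in Gsta1, Gstm6 and Ugt1a6a, beside 7.02%. None of these matches overlapped another motif, and a match of letters is a description of the window alone.

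The conjugation genes differed widely from WT in both RE and KO livers. In RE livers 34 of the 43 were called against WT (18 higher, 16 lower), where 45.9% of all genes tested were called (24.2% higher, 21.7% lower). In KO livers 34 of the 43 were called against WT (16 higher, 18 lower), where 42.3% of all genes tested were called (22.1% higher, 20.2% lower). The median size of the difference over the 43 genes was 0.62 in RE and 0.67 in KO livers, beside 0.13 in RE and 0.12 in KO livers over all genes tested. The 34 include Sult1e1, Gsta1 and Ugt1a10 in each. Both comparisons use the same 18 WT livers, so their values are given side by side below and are not independent. All 19 GST genes tested were called in RE livers and 18 of 19 in KO livers, while 10 of 16 UGT genes were called in each, and 5 of 8 SULT genes in RE and 6 of 8 in KO livers. Sult1c2, Sult2a8, Ugt2a3, Ugt2b35, Ugt2b37 and Ugt2b38 were called in neither.

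**Figure D1:**
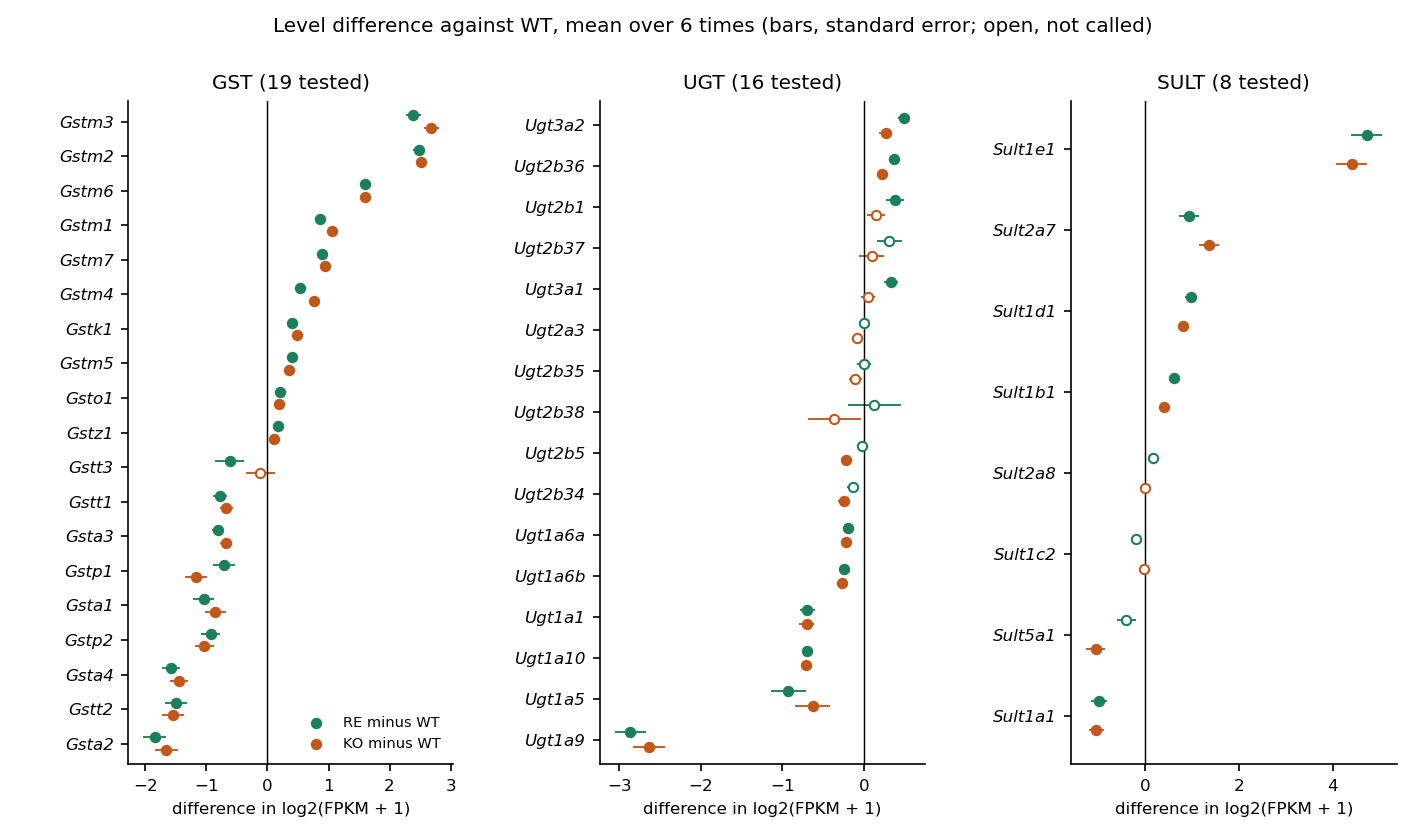
Difference in log2(FPKM + 1) from WT for the 43 conjugation genes tested, RE minus WT and KO minus WT, as the mean over 6 times with its standard error; open points were not called. All Gstm genes lie right of 0 and all Gsta, Gstp and Ugt1a genes left of it in both comparisons, and Sult1e1 is farthest from 0 at 4.72 in RE and 4.40 in KO livers.

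Between RE and KO livers limma called none of the 43 genes, where 0.192% of all genes tested were called (0.0732% higher, 0.119% lower). Of the 43, 14 had an unadjusted p under 0.05 (limma), a threshold for which no share of all genes was computed. Weighting each library by its own spread made the number of genes called 7, all higher in RE livers, where 5.26% of all genes tested were called with those weights. The smallest adjusted p was that of Ugt2b5 (0.20 ± 0.05 higher in RE livers, adjusted p 0.0660), and the largest difference was that of Sult5a1 (0.65 ± 0.20 higher in RE livers, adjusted p 0.149, limma). No gene of the 43 had all RE livers on one side of all KO livers, and neither did any other gene tested (0%).

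The mu class GST genes lie side by side on chromosome 3 (chr3:107895854-108045179, GRCm38.p6), and all 7 were called higher in RE and in KO livers than in WT livers. Gstm2 had 387, 501 and 689 FPKM in RE livers, 418, 512 and 682 FPKM in KO livers, and 65.3, 90.4 and 131 FPKM in WT livers (lowest, median and highest of 18, as in all triplets with no time). Every RE and KO liver was above every WT liver. Its difference was 2.48 ± 0.09 (SE, log2) in RE livers with an adjusted p of 2.18e-24, and 2.52 ± 0.09 in KO livers with an adjusted p of 1.32e-24 (limma). Such separation, all livers of a genotype above all WT livers, was seen in RE and in KO livers for 4 of the 40 genes that passed the filter in all genotypes (Gstm2, Gstm3, Gstm6 and Gstm7), beside 0.787% of all genes tested in RE and 0.878% in KO livers.

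Gstm3 had 179, 316 and 542 FPKM in RE livers, 226, 401 and 786 FPKM in KO livers, and 39.8, 58.2 and 89.7 FPKM in WT livers. Its RE and KO ranges both lay clear of the WT range, and the differences were 2.39 ± 0.12 in RE and 2.68 ± 0.12 in KO livers (adjusted p 2.97e-19 in RE and 5.76e-21 in KO, limma). Of the 50-base stretches of its transcript 28.8% also occur in transcripts of other genes, so that fragments could have been assigned between them, against 9.36% for Gstm2 and 11.5% for Gstm6.

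Gstm6 had 329, 409 and 601 FPKM in RE livers, 349, 432 and 554 FPKM in KO livers, and 113, 142 and 176 FPKM in WT livers. The mutant livers were again all above the WT livers, by 1.60 ± 0.06 in RE and 1.60 ± 0.06 in KO livers (adjusted p 1.29e-23 in RE and 1.20e-23 in KO, limma). Gstm7, which shares no such stretch with another gene, had 86.7, 119 and 154 FPKM in RE livers, 93.5, 118 and 140.0 FPKM in KO livers, and 44.5, 58.0 and 74.0 FPKM in WT livers. It too showed no overlap with WT, with differences of 0.89 ± 0.06 in RE and 0.94 ± 0.06 in KO livers (adjusted p 5.79e-17 in RE and 1.08e-17 in KO, limma).

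Gstm1, the most abundant GST gene over the 54 livers, had 1408, 2077 and 2887 FPKM in RE livers, 1597, 2409 and 3839 FPKM in KO livers, and 856, 1110.2 and 1731 FPKM in WT livers. The ranges of RE and KO livers overlapped the top of the WT range. Gstm1 rose by 0.86 ± 0.08 in RE livers (adjusted p 8.15e-12) and by 1.06 ± 0.08 in KO livers (adjusted p 2.73e-14, limma). Gstm4 and Gstm5, at the ends of the cluster, differed least: Gstm4 rose by 0.54 ± 0.09 in RE and 0.77 ± 0.09 in KO livers, and Gstm5 by 0.41 ± 0.07 in RE and 0.36 ± 0.07 in KO livers. Along the 149.3 kb the largest differences were those of Gstm3 and Gstm2, in the middle of the gene order.

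**Figure D2:**
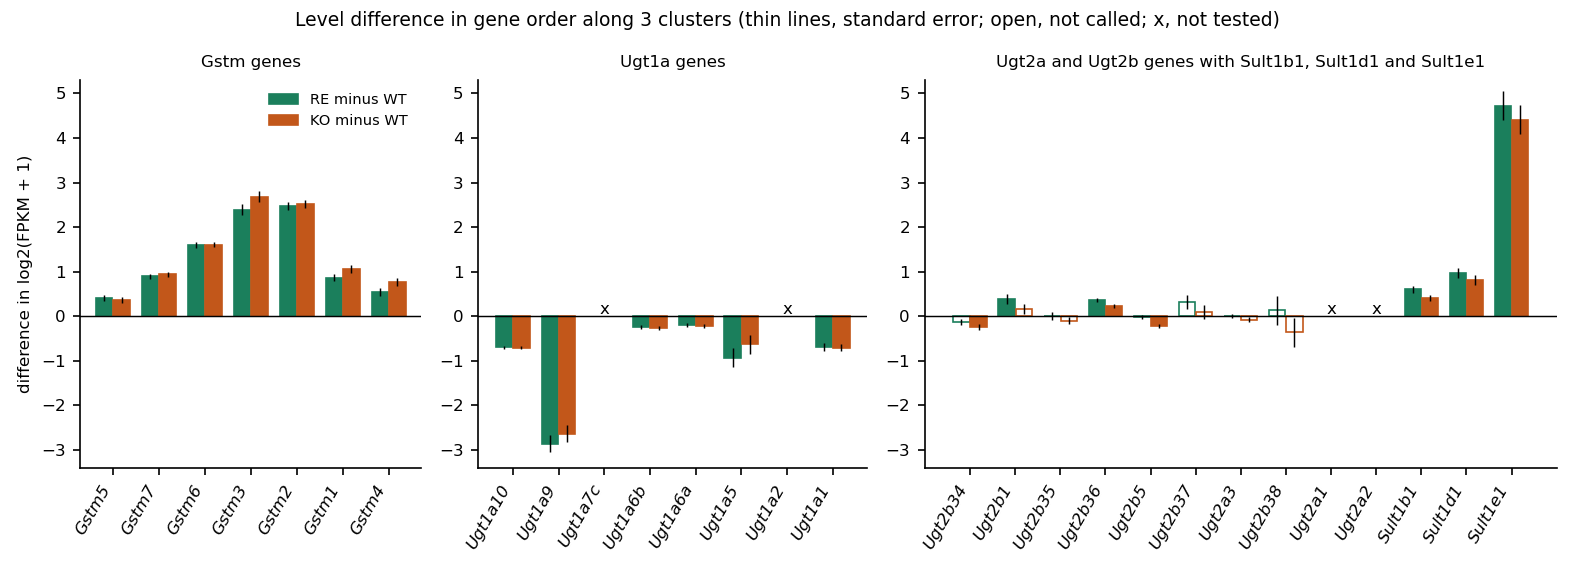
Difference in log2(FPKM + 1) from WT, RE (left bar) and KO (right bar), of genes in their order along 3 clusters; thin lines are standard errors, open bars were not called and x marks genes not tested. The Gstm bars are tallest at Gstm3 and Gstm2, all Ugt1a bars lie below 0, and the 3 Sult1 genes stand above 0 at the end of the Ugt2 cluster.

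All alpha class genes tested and the pi class genes were lower. Gsta4, which clears 4-hydroxynonenal, an aldehyde of lipid peroxidation, had 13.7, 26.3 and 54.5 FPKM in RE livers, 15.2, 27.9 and 53.7 FPKM in KO livers, and 42.8, 77.5 and 119 FPKM in WT livers. The highest RE and KO livers overlapped the lowest WT livers. Gsta4 fell by 1.57 ± 0.15 on the log2 scale in RE livers (adjusted p 9.56e-12) and by 1.44 ± 0.15 in KO livers (adjusted p 1.03e-10, limma), and its mean was lower at all 6 times in both.

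Gsta3, the most abundant alpha class gene, which in mouse detoxifies the epoxide of aflatoxin, had 515, 915 and 2069 FPKM in RE livers, 732, 1005 and 1329 FPKM in KO livers, and 1095, 1611 and 2074 FPKM in WT livers. The ranges overlapped, and the highest RE value came from 1 ZT16 liver (numbered 2 in the table) that also held the highest Sult1d1, Gstt3 and Gstm1 of the RE livers. Gsta3 fell by 0.81 ± 0.10 in RE and by 0.68 ± 0.10 in KO livers (adjusted p 1.48e-08 in RE and 6.36e-07 in KO, limma).

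Gsta2 had 2.71, 6.14 and 17.4 FPKM in RE livers, 3.16, 7.52 and 20.3 FPKM in KO livers, and 7.89, 26.8 and 72.1 FPKM in WT livers. The ranges overlapped, and Gsta2 fell by 1.85 ± 0.19 in RE and by 1.65 ± 0.19 in KO livers (adjusted p 1.17e-10 in RE and 1.95e-09 in KO, limma), with 64.2% of its 50-base stretches found in other genes. Gsta1, with 89.7% shared, fell by 1.046 ± 0.17 in RE and by 0.86 ± 0.17 in KO livers at low levels. In 1 KO liver (ZT16, numbered 2) it had 9.73 FPKM, against at most 0.609 FPKM in the other 17 KO livers; that liver also had the highest sum of bile duct markers, 171 FPKM.

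Gstp1, the pi class gene that is higher in male than in female mouse liver, had 625, 1659 and 2829 FPKM in RE livers, 569, 1017 and 2641 FPKM in KO livers, and 1145, 2356 and 4155 FPKM in WT livers. The ranges overlapped broadly. Gstp1 fell by 0.71 ± 0.18 in RE livers (adjusted p 0.00100) and by 1.17 ± 0.18 in KO livers (adjusted p 7.51e-07, limma). It shares 62.3% of its 50-base stretches with its neighbour Gstp2, which fell by 0.93 ± 0.15 in RE and by 1.04 ± 0.15 in KO livers.

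In the theta class, which acts on small halogenated molecules, Gstt2 had 6.65, 17.96 and 40.4 FPKM in RE livers, 6.32, 17.8 and 38.4 FPKM in KO livers, and 17.6, 56.9 and 107 FPKM in WT livers. The ranges overlapped, with the RE and KO medians near the lowest WT liver, and Gstt2 fell by 1.498 ± 0.18 in RE and by 1.55 ± 0.18 in KO livers (adjusted p 4.66e-09 in RE and 2.15e-09 in KO, limma). Gstt1, the most abundant of the class, had 145, 214 and 457 FPKM in RE livers, 162, 233 and 356 FPKM in KO livers, and 302, 385 and 471 FPKM in WT livers. It fell by 0.78 ± 0.11 in RE and by 0.67 ± 0.11 in KO livers, with overlapping ranges (adjusted p 1.62e-07 in RE and 2.72e-06 in KO, limma). Gstt3 fell by 0.62 ± 0.23 in RE livers (adjusted p 0.0268), which was not called without 1 RE ZT16 liver (numbered 1, adjusted p 0.0614, limma), and differed by -0.12 ± 0.23 in KO livers (adjusted p 0.720).

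The remaining GST classes were higher by small amounts. Gstk1, found in mitochondria and peroxisomes, rose by 0.40 ± 0.06 in RE and by 0.48 ± 0.06 in KO livers (adjusted p 2.30e-07 in RE and 5.66e-09 in KO). Gsto1, which reduces dehydroascorbate, rose by 0.21 ± 0.07 in RE and by 0.19 ± 0.07 in KO livers (adjusted p 0.00922 in RE and 0.0187 in KO). Gstz1, an enzyme of tyrosine breakdown, rose by 0.18 ± 0.03 in RE and by 0.10 ± 0.03 in KO livers (adjusted p 1.84e-05 in RE and 0.00837 in KO, limma).

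**Figure D3:**
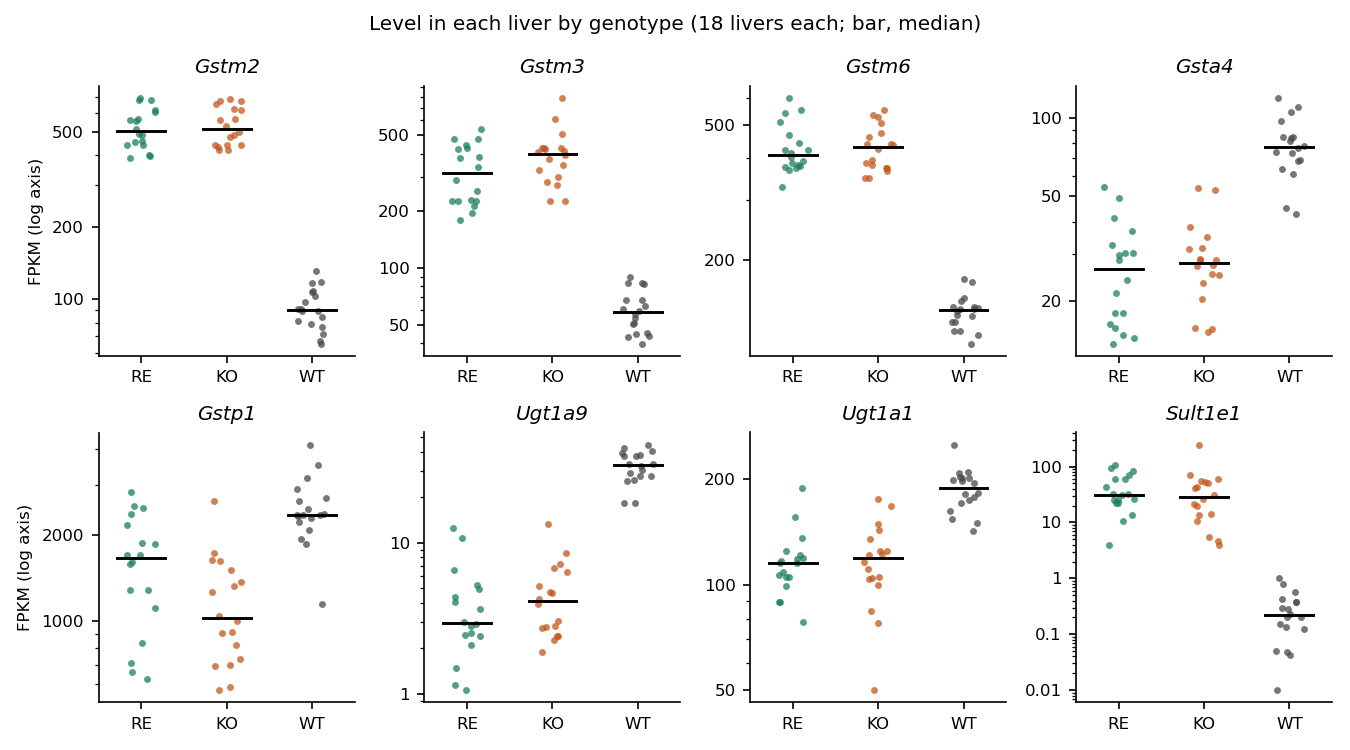
FPKM on a log axis in each liver for 8 conjugation genes, 18 livers per genotype (RE, KO and WT from left to right), with the median as a bar. Gstm2, Gstm3, Gstm6, Ugt1a9 and Sult1e1 show no overlap of RE or KO with WT, while the Gstp1 ranges overlap (625 to 2829 FPKM in RE, 569 to 2641 FPKM in KO and 1145 to 4155 FPKM in WT livers).

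Among the UGT genes, the Ugt1a cluster on chromosome 1 (chr1:88055411-88220002, GRCm38.p6) was lower throughout: the 5 genes that passed the filter in all genotypes (Ugt1a1, Ugt1a5, Ugt1a6a, Ugt1a6b and Ugt1a9) were called lower in RE and in KO livers. Its members have first exons of their own and share the remaining exons, so fragments could have been assigned between them. Ugt1a9, whose human counterpart acts on phenols, had 1.06, 2.94 and 12.4 FPKM in RE livers, 1.90, 4.09 and 13.3 FPKM in KO livers, and 18.3, 32.8 and 44.6 FPKM in WT livers. No RE or KO liver reached the lowest WT liver. Ugt1a9 fell by 2.87 ± 0.19 in RE livers (adjusted p 7.29e-16) and by 2.64 ± 0.19 in KO livers (adjusted p 9.44e-15, limma), and 62.0% of its 50-base stretches occur in other genes. Of the 40 genes that passed the filter in all genotypes, Ugt1a9 was the 1 with all livers below WT, beside 0.558% of all genes tested in RE and 0.732% in KO livers.

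Ugt1a1, which conjugates bilirubin, had 78.1, 115 and 188 FPKM in RE livers, 50.1, 119 and 175 FPKM in KO livers, and 142, 188 and 249.9 FPKM in WT livers. The ranges overlapped, and Ugt1a1 fell by 0.69 ± 0.09 in RE and by 0.70 ± 0.09 in KO livers (adjusted p 3.07e-08 in RE and 2.52e-08 in KO, limma). Ugt1a5 fell by 0.93 ± 0.21 in RE and by 0.62 ± 0.21 in KO livers (adjusted p 0.000434 in RE and 0.0159 in KO, limma). Ugt1a10, which passed the filter through the WT groups alone, had at most 0.244 FPKM in RE and 0.222 FPKM in KO livers, against 0.367 to 1.14 FPKM in WT livers. The 8 Ugt1a genes summed to 276 ± 45.03 FPKM in RE, 280.0 ± 41.7 FPKM in KO and 412 ± 34.4 FPKM in WT livers (SD, n = 18 each).

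The Ugt2 and Ugt3 genes called in RE livers (Ugt2b1, Ugt2b36, Ugt3a1 and Ugt3a2) were all higher than in WT livers. In KO livers Ugt2b36 and Ugt3a2 were called higher, and Ugt2b34 and Ugt2b5 lower. Ugt2b enzymes conjugate steroids, bile acids and fatty acids, and Ugt2b5, the most abundant UGT gene, had 409, 567 and 828 FPKM in RE livers, 416, 505 and 586 FPKM in KO livers, and 516, 587 and 716 FPKM in WT livers. The ranges overlapped, and its difference was -0.02 ± 0.05 in RE livers (adjusted p 0.761) and -0.22 ± 0.05 in KO livers (adjusted p 0.000284, limma). Ugt2b36 had 369, 557 and 747 FPKM in RE livers, 418, 508 and 599 FPKM in KO livers, and 385, 423 and 468 FPKM in WT livers. With overlapping ranges, it rose by 0.37 ± 0.04 in RE and by 0.23 ± 0.04 in KO livers (adjusted p 4.57e-09 in RE and 5.50e-05 in KO, limma).

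Ugt3a2, whose human counterpart uses other sugars, rose by 0.49 ± 0.08 in RE and by 0.27 ± 0.08 in KO livers (adjusted p 1.19e-06 in RE and 0.00431 in KO, limma). Ugt2b1 rose by 0.38 ± 0.11 in RE livers and differed by 0.15 ± 0.11 in KO livers (adjusted p 0.00448 in RE and 0.278 in KO, limma). Ugt2a3 differed by 0.01 ± 0.05 in RE and -0.08 ± 0.05 in KO livers, neither called.

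Sult1e1, which inactivates estrogens by sulfation, showed the largest level difference of the 43 genes. It had 3.93, 31.4 and 106 FPKM in RE livers, 3.93, 28.3 and 246 FPKM in KO livers, and 0, 0.221 and 1.00 FPKM in WT livers. Every RE and KO liver was above every WT liver, and in 1 WT liver it was listed at 0. It passed the filter through the groups in which it was high, so the difference, 4.72 ± 0.32 in RE and 4.40 ± 0.32 in KO livers, is given as a description with no test. Its standard deviation between livers of a group was 1.22 (log2) in RE and 1.25 in KO livers, beside a median over the 43 genes of 0.279 in RE and 0.287 in KO livers.

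Sult1b1 and Sult1d1 lie next to Sult1e1 at the end of the Ugt2 cluster on chromosome 5 (chr5:86889770-87591611, GRCm38.p6), and none of the 3 shares a 50-base stretch with another gene. Sult1d1 had 47.5, 98.1 and 333 FPKM in RE livers, 61.6, 95.4 and 136 FPKM in KO livers, and 24.9, 52.3 and 98.005 FPKM in WT livers. The ranges overlapped, and Sult1d1 rose by 0.97 ± 0.12 in RE and by 0.81 ± 0.12 in KO livers (adjusted p 5.79e-09 in RE and 3.05e-07 in KO, limma). Sult1b1, which sulfates thyroid hormones, had 14.6, 24.6 and 31.8 FPKM in RE livers, 14.1, 20.0 and 25.8 FPKM in KO livers, and 7.67, 15.8 and 20.7 FPKM in WT livers. It rose by 0.60 ± 0.07 in RE and by 0.40 ± 0.07 in KO livers, also with overlap (adjusted p 5.46e-09 in RE and 1.39e-05 in KO, limma).

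Sult1a1, the phenol sulfotransferase, was lower. It had 58.6, 130.1 and 379 FPKM in RE livers, 70.1, 126 and 218 FPKM in KO livers, and 192, 268 and 365 FPKM in WT livers. The ranges overlapped, and Sult1a1 fell by 0.99 ± 0.17 in RE and by 1.04 ± 0.17 in KO livers (adjusted p 6.26e-06 in RE and 2.91e-06 in KO, limma). Sult5a1 fell by 1.06 ± 0.20 in KO livers (adjusted p 5.02e-05) and differed by -0.41 ± 0.20 in RE livers (adjusted p 0.102), which was called without 1 RE ZT16 liver (numbered 0, adjusted p 0.0133, limma). Sult2a8, a hydroxysteroid sulfotransferase and the most abundant SULT gene, had 344, 545 and 710.4 FPKM in RE livers, 299, 485 and 658 FPKM in KO livers, and 326, 463 and 552 FPKM in WT livers. Its ranges overlapped, and it was called in neither comparison (0.16 ± 0.08 in RE livers, adjusted p 0.0938). The RE difference was called with library weights, without RE ZT8 liver 0 and without RE ZT16 liver 2 (adjusted p 0.00359 to 0.0336, limma).

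The summed level of each superfamily lay close between genotypes while its makeup differed. GST genes summed to 7385 ± 988 FPKM in RE, 7379 ± 881 FPKM in KO and 7018 ± 953 FPKM in WT livers, UGT genes to 2787 ± 379.9 FPKM in RE, 2466 ± 264 FPKM in KO and 2550.2 ± 166 FPKM in WT livers, and SULT genes to 867 ± 156 FPKM in RE, 773 ± 122 FPKM in KO and 815 ± 86.1 FPKM in WT livers (SD, n = 18 each). These sums were not tested. Within the GST genes, the Gstm family summed to 3569 ± 662 FPKM in RE, 3968 ± 721 FPKM in KO and 1557 ± 293 FPKM in WT livers, the Gstp family to 1626 ± 683 FPKM in RE, 1170.2 ± 528 FPKM in KO and 2499 ± 663 FPKM in WT livers, and the Gsta family to 980.3 ± 372 FPKM in RE, 1031 ± 186 FPKM in KO and 1695 ± 314 FPKM in WT livers. Gstm1 held 28.3% of the GST level in RE and 32.2% in KO livers, against 16.3% in WT livers. Gstp1 held 22.1% in RE and 15.8% in KO livers, against 35.2% in WT livers. Of the SULT level, Sult1a1 held 16.9% in RE and 17.7% in KO livers, against 32.5% in WT livers.

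**Figure D4:**
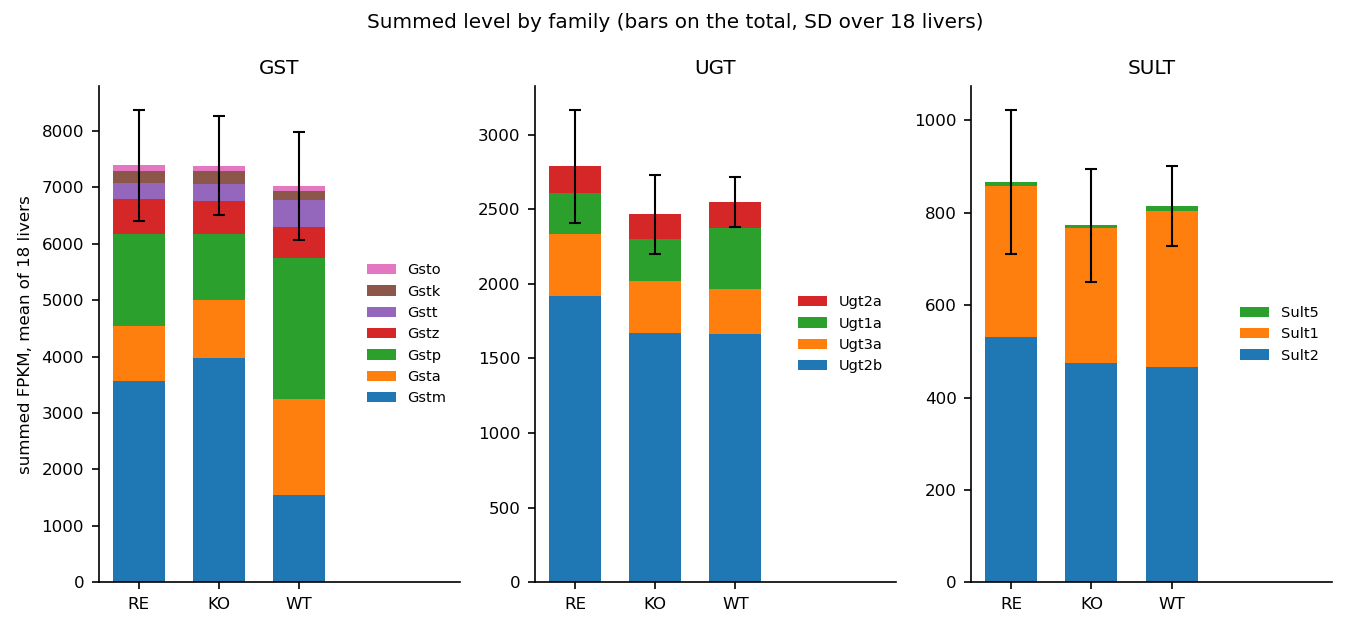
Summed FPKM of the families within each superfamily, as the mean of 18 livers per genotype (RE, KO and WT from left to right), stacked to the total, whose SD over livers is the error bar. The 3 GST totals lie between 7018 and 7385 FPKM, while the Gstm part is 3569 FPKM in RE and 3968 FPKM in KO livers, against 1557 FPKM in WT livers.

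Daily rhythms were tested with a 24 h cosine and sine in each genotype, where the amplitude is the distance from the mean to the peak in log2 units. In RE livers 14 of the 43 conjugation genes were called rhythmic, where 46.8% of all genes tested were called, and in WT livers 10 of the 43, where 34.8% were called. In KO livers limma called none of the 43, where 0.0366% of all genes tested were called. Of the 43, 7 had an unadjusted p under 0.05 (limma), a threshold for which no share of all genes was computed. With library weights 4 genes were called in KO livers, where 5.38% of all genes tested were called with those weights. Fitted on the livers of 1 genotype alone, 6 genes were called in RE livers, where 29.9% of all genes tested were called in that fit, and 20 in WT livers, where 48.9% were called. Gsta3, Gstm1, Gstm7, Sult1b1, Sult1d1 and Ugt2b34 were called in both RE and WT livers. Of these, the RE calls of Gsta3, Gstm1 and Sult1b1 were lost in the fit on RE livers alone. Of 63 other settings, Gsta3 lost its RE call in 7 and its WT call in 9, Gstm1 its RE call in 9 and its WT call in 3, Sult1b1 its RE call in 4 and Gstm7 its WT call in 2.

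For a time, the values of the 3 livers of the group are given. Ugt2b34 had 191, 136 and 109.6 FPKM at ZT0 and 239, 243 and 204 FPKM at ZT16 in RE livers, 128, 169.6 and 115 FPKM at ZT0 and 191, 158 and 124 FPKM at ZT16 in KO livers, and 133, 148 and 178 FPKM at ZT0 and 244, 255 and 227 FPKM at ZT16 in WT livers. The ZT16 livers were above all ZT0 livers in RE and in WT, and the times overlapped in KO. The amplitude was 0.37 ± 0.07 in RE livers with a peak at ZT17.1 (adjusted p 0.000322) and 0.33 ± 0.07 in WT livers with a peak at ZT16.4 (adjusted p 0.00120, limma).

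Sult1d1 had 94.0, 57.4 and 67.4 FPKM at ZT0 and 117, 126 and 333 FPKM at ZT16 in RE livers, 61.6, 95.2 and 113 FPKM at ZT0 and 111, 75.3 and 69.9 FPKM at ZT16 in KO livers, and 24.9, 29.9 and 39.0 FPKM at ZT0 and 98.005, 76.0 and 77.0 FPKM at ZT16 in WT livers. The ZT16 livers were above the ZT0 livers in RE and in WT, and the times overlapped in KO. The amplitude was 0.51 ± 0.12 in RE livers with a peak at ZT16.3 (adjusted p 0.00218) and 0.58 ± 0.12 in WT livers with a peak at ZT15.4 (adjusted p 0.000673, limma). The rhythm of KO livers differed from that of WT livers, with an amplitude of the difference of 0.68 ± 0.16 (adjusted p 0.0166). That call was lost without the 2 livers of highest small intestine and bile duct markers (adjusted p 0.0609, limma).

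Gstm1 peaked early in the light phase, at ZT1.74 in RE livers (amplitude 0.24 ± 0.08, adjusted p 0.0390) and at ZT2.69 in WT livers (amplitude 0.28 ± 0.08, adjusted p 0.0202, limma). Gstm7 peaked at ZT1.52 in RE livers (amplitude 0.25 ± 0.06) and at ZT2.50 in WT livers (amplitude 0.19 ± 0.06). Sult1b1 peaked at ZT10.3 in RE livers (amplitude 0.24 ± 0.07) and at ZT12.1 in WT livers (amplitude 0.35 ± 0.07). Gsta3 peaked at ZT23.2 in RE livers (amplitude 0.31 ± 0.10) and at ZT19.9 in WT livers (amplitude 0.32 ± 0.10).

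Gstm3 was called rhythmic in RE livers alone. It had 423, 479 and 341 FPKM at ZT0 and 211, 256 and 179 FPKM at ZT12 in RE livers, 227, 226 and 613 FPKM at ZT0 and 422, 428 and 429 FPKM at ZT12 in KO livers, and 82.1, 83.0 and 54.5 FPKM at ZT0 and 63.1, 83.0 and 44.6 FPKM at ZT12 in WT livers. All RE livers at ZT0 were above all at ZT12, and the times overlapped in KO and in WT. The amplitude in RE livers was 0.59 ± 0.12 with a peak at ZT0.496 (adjusted p 0.000974). Of the 43 genes it was the 1 whose rhythm differed between RE and KO livers (amplitude of the difference 0.79 ± 0.18, adjusted p 0.0245), where 3.07% of all genes tested were called. The difference between RE and WT livers was not called (adjusted p 0.125, limma).

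Gstm4 was called rhythmic in WT livers alone. It had 61.8, 48.1 and 83.0 FPKM at ZT0 and 46.2, 52.8 and 56.8 FPKM at ZT16 in RE livers, 59.0, 50.5 and 94.0 FPKM at ZT0 and 59.6, 68.5 and 73.8 FPKM at ZT16 in KO livers, and 52.5, 61.4 and 51.4 FPKM at ZT0 and 28.9, 23.5 and 27.8 FPKM at ZT16 in WT livers. The ZT0 livers were above the ZT16 livers in WT, and the times overlapped in RE and in KO. The amplitude in WT livers was 0.58 ± 0.09 with a peak at ZT3.71 (adjusted p 2.00e-05), and the rhythm of KO livers differed from it by 0.68 ± 0.13 (adjusted p 0.00120, limma). In RE livers the amplitude was 0.26 ± 0.09 (adjusted p 0.0525). Gstt2, Sult1c2 and Ugt1a10 were the other genes called in WT and not in RE livers. Gstt2 had an amplitude of 0.55 ± 0.18 and a peak at ZT13.5 in WT livers, a call lost in 11 of 63 other settings. Ugt1a10 passed the filter through WT groups alone, which favoured a call in WT livers alone.

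Of the 8 genes called rhythmic in RE and not in WT livers, 4 were Ugt2 genes with peaks in the dark phase. No share of all genes was computed for such calls or for peaks in the dark phase. Ugt2b36 peaked at ZT13.9 (amplitude 0.20 ± 0.04), Ugt2b5 at ZT14.9 (amplitude 0.19 ± 0.05), Ugt2a3 at ZT15.8 (amplitude 0.21 ± 0.05) and Ugt2b35 at ZT17.4 (amplitude 0.34 ± 0.08) in RE livers. Ugt2b5 had 539.9, 508 and 409 FPKM at ZT0 and 594, 799 and 828 FPKM at ZT16 in RE livers, 416, 418 and 445 FPKM at ZT0 and 574, 537 and 477 FPKM at ZT16 in KO livers, and 616, 608 and 599 FPKM at ZT0 and 516, 518 and 559.8 FPKM at ZT16 in WT livers. It was higher at ZT16 than at ZT0 in RE and in KO livers and lower in WT livers. The rhythm of RE livers differed from WT for Ugt2b5 (0.25 ± 0.07, adjusted p 0.0275) and Ugt2b36 (0.22 ± 0.06, adjusted p 0.0347), and was not called for Ugt2b35 (adjusted p 0.0695, limma). With 1 library left out the Ugt2b5 difference was lost in 6 of 54 cases (adjusted p up to 0.0734) and the Ugt2b36 difference in 12 (adjusted p up to 0.0762, limma). Of the 50-base stretches of Ugt2b5 41.7% occur in other genes. The other 4 genes were Gstm3, Gsta4 (amplitude 0.43 ± 0.15, peak ZT19.5), Sult2a8 (0.25 ± 0.08, peak ZT11.4) and Ugt1a6a (0.17 ± 0.05, peak ZT21.4). Of 63 other settings the RE call of Gsta4 was lost in 13, that of Sult2a8 in 7, that of Ugt1a6a in 3, and those of Ugt2a3 and Ugt2b5 in 1 each. For each of these genes the fit on RE livers alone was such a setting. It was the only one for Ugt2a3 (adjusted p 0.0525) and Ugt2b5 (adjusted p 0.0514, limma).

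**Figure D5:**
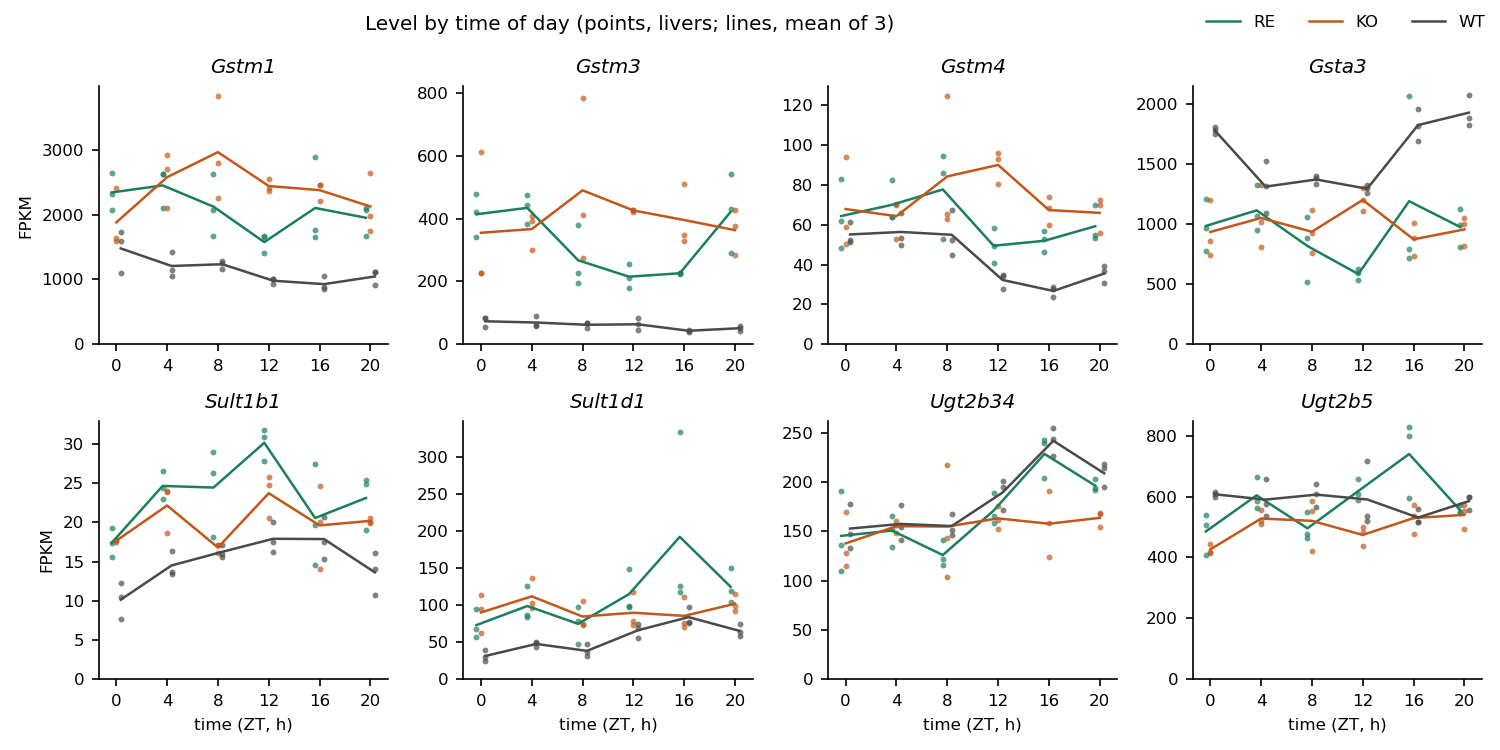
FPKM by time of day (ZT, h) for 8 conjugation genes in RE, KO and WT livers; points are livers and lines join means of 3. The RE and WT lines of Ugt2b34 and Sult1d1 are highest at ZT16, and the RE line of Gstm3 is lowest at ZT12.

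The rhythm differed from WT for 3 of the 43 genes in RE livers (Ugt1a10, Ugt2b36 and Ugt2b5), where 14.1% of all genes tested were called, and for 4 of the 43 in KO livers (Gstm1, Gstm4, Sult1d1 and Ugt1a10), where 9.06% were called. For the other genes, a rhythm called in 1 genotype and not in another is not shown to differ. The differences of Ugt1a10 were not called with a pseudocount of 0.1 FPKM (adjusted p 0.121 in RE and 0.259 in KO, limma). Ugt1a10 passed the filter through WT groups alone and averaged 0.0611 FPKM in RE and 0.0527 FPKM in KO livers. Such levels leave little room for an amplitude in log2(FPKM + 1), so its differences are a description. The difference of Gstm1 (0.41 ± 0.11, adjusted p 0.0433, limma) was lost in 27 of 63 other settings.

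Genes that supply or work beside the conjugation enzymes were read from lists, on the same test, for which 45.9% of all genes tested were called in RE and 42.3% in KO livers. In the glutathione supply list 6 of 9 genes tested were called in RE livers (3 higher, 3 lower) and 5 of 9 in KO livers (3 higher, 2 lower). Cbs, of cysteine synthesis, rose by 0.78 in RE and 0.92 in KO livers, Ggct, of glutathione breakdown, rose by 0.86 in RE and 0.90 in KO livers, and Gclm, the regulatory subunit of the first enzyme of glutathione synthesis, fell by 0.26 in RE and 0.21 in KO livers. In the UDP-glucuronic acid supply list 5 of 8 genes tested were called in RE livers (2 higher, 3 lower) and 6 of 8 in KO livers (3 higher, 3 lower), and Gusb, which removes glucuronic acid, fell by 0.36 in RE and 0.25 in KO livers. In the PAPS list 3 of 8 genes tested were called in RE livers (2 higher, 1 lower) and 1 of 8 in KO livers (1 higher, 0 lower), and Papss2, a PAPS synthase, fell by 0.40 in RE livers. Rhythms were called for 7 of 8 PAPS genes in RE livers, beside 46.8% of all genes tested, and for 7 of 8 in WT livers, beside 34.8%, with Papss2 peaking at ZT2.63 in RE and at ZT14.5 in WT livers (adjusted p of the difference 0.000183, limma).

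Among conjugate exporters 4 of 6 genes tested were called in RE livers (0 higher, 4 lower) and 4 of 6 in KO livers (0 higher, 4 lower); Abcg2 fell by 0.21 in RE and 0.33 in KO livers. Among other conjugating enzymes 8 of 16 genes tested were called in RE livers (4 higher, 4 lower) and 9 of 16 in KO livers (3 higher, 6 lower); Mgst3, a membrane glutathione transferase, fell by 1.29 in RE and 0.97 in KO livers, and Nnmt, which methylates nicotinamide, rose by 0.93 in RE and 0.84 in KO livers. Among regulators of drug metabolism 11 of 17 genes tested were called in RE livers (1 higher, 10 lower) and 11 of 17 in KO livers (1 higher, 10 lower). Dbp fell by 1.96 in RE and 1.85 in KO livers, Por, the electron donor of P450 enzymes, by 1.34 in RE and 1.22 in KO livers, and Ppara by 0.77 in RE and 0.85 in KO livers. The last list held growth hormone factors (such as Stat5b, Ghr and Igf1) and genes with a male or female pattern in mouse liver. Of its 12 genes tested, 6 were called in RE livers (4 higher, 2 lower) and 7 in KO livers (5 higher, 2 lower). Elovl3, higher in males, rose by 1.69 in RE and 1.29 in KO livers, Cyp2a4, higher in females, fell by 0.48 in RE and 0.44 in KO livers, and Cyp2b9, also higher in females, rose by 1.31 in KO livers. Cyp2a4 reached at most 0.422 FPKM in RE, 0.359 FPKM in KO and 1.74 FPKM in WT livers. Cyp2b9 reached at most 0.444 FPKM in WT livers, with a KO median of 1.56 FPKM. Both passed the filter through groups where they were high, so these differences are a description.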

How the data were processed

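Whole-liver RNA was measured in 54 libraries of 3 genotypes at 6 times. Reads were aligned with TopHat to mm10, per the submitters' processing notes. For the expression tool and its annotation, nothing was stated in the sources at hand. The authors deposited 1 table of FPKM per gene and library. Its columns name genotype, time and a number from 0 to 2 that does not match the numbers in the sample titles, so columns were placed by group. The labels do not say that samples of a group came from separate mice, so p-values measure the spread between these samples, which may be technical.

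FPKM were taken as log2(FPKM + 1) and fitted with limma 3.58.1 (R 4.3.3) with 18 group means, a mean-dependent prior and 36 residual degrees of freedom. The 10932 genes whose mean reached 1 FPKM in 1 or more groups were tested and p-values were adjusted by Benjamini-Hochberg over them. A fold change on this scale understates changes of low genes. The script was tested on simulated data. Read totals are not in the table; steps of low values gave relative depths from 0.727 to 1.56, a 2.15-fold range. Named genes were called genes averaging 5 FPKM or more, up to 12 by size per comparison, the most abundant of each superfamily and family, and up to 4 called genes per list. The conjugation genes, the lists and the tests were chosen with earlier results of these data known. Sequences and positions are from RefSeq (GRCm38.p6). Alternatives were another pseudocount and filter, median centring, library weights, fits on the compared genotypes alone, sequence-sharing families summed, and each library left out; leaving out the 2 livers of highest small intestine and bile duct markers was added after seeing the data. Python 3.11.15, pandas 2.3.3, numpy 2.4.6 and matplotlib 3.10.9 were used.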

Additional observations from a re-analysis of the deposited data

Results flagged for a closer look

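Differences of 24 h rhythm between genotypes, each from a test of the difference itself (limma, adjusted over all genes tested), were called for 7 conjugation genes. The share called was near or below that of all genes tested in each comparison: 3 of 43 beside 14.1% between RE and WT livers, 4 of 43 beside 9.06% between KO and WT livers and 1 of 43 beside 3.07% between RE and KO livers. Between RE and WT livers the amplitude of the difference was 0.241 (log2) for Ugt1a10, 0.222 for Ugt2b36 and 0.255 for Ugt2b5. Between KO and WT livers it was 0.406 for Gstm1, 0.676 for Gstm4, 0.677 for Sult1d1 and 0.237 for Ugt1a10. Between RE and KO livers it was 0.793 for Gstm3. The Gstm4 difference had the smallest adjusted p of these 8, 0.00120, and the Gstm1 difference the largest, 0.0433 (limma). Ugt1a10 passed the filter through WT groups alone and averaged 0.0611 FPKM in RE and 0.0527 FPKM in KO livers. Its differences of rhythm are therefore a description and not a test.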

How the results depend on the processing

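No paired analysis was possible because the table's columns do not carry the replicate numbers of the sample titles. With library weights 7 genes were called between RE and KO levels (7 higher in RE). Rhythms were then called for 22 genes in RE, 4 in KO and 18 in WT livers, beside 54.4%, 5.38% and 57.3% of all genes tested. Differences of rhythm were called for 13 (RE against WT), 14 (KO against WT) and 10 (RE against KO), beside 29.5%, 23.9% and 15.2% of all genes tested. With only the genotypes compared in the fit, rhythms were called for 6 genes in RE and 20 in WT livers, beside 29.9% and 48.9% of all genes tested, and differences of rhythm for 5 (RE against WT), 8 (KO against WT) and 0 (RE against KO), the differences beside 13.6%, 13.2% and 0.0187% of all genes tested. With sequence-sharing families summed, 9 were called lower in RE and 11 in KO livers than in WT livers. Without the 2 livers of highest small intestine and bile duct markers, an alternative chosen after seeing the data, 2 differences of rhythm were called between KO and WT livers. The cause of these shifts was not tested, apart from the summing, which leaves fewer genes to count. Leaving out each library in turn gave 33 to 37 level calls in RE (18 to 20 higher, 15 to 17 lower), 34 in KO against WT (16 higher, 18 lower) and 0 to 2 between RE and KO (0 to 2 higher, 0 lower; 2 without RE ZT0 liver 2). It gave rhythms for 11 to 16 genes in RE, 0 in KO and 6 to 11 in WT livers (6 without WT ZT16 liver 0). Differences of rhythm ranged from 1 to 4 (RE against WT), from 3 to 5 (KO against WT) and from 0 to 3 (RE against KO). There was 1 RE against WT difference without RE ZT4 liver 0, RE ZT4 liver 2, RE ZT16 liver 1, WT ZT4 liver 2 or WT ZT12 liver 1. The Gstm3 difference between RE and KO was lost without RE ZT12 liver 2 or KO ZT0 liver 1, and 3 genes were called without RE ZT16 liver 2 or KO ZT8 liver 2. Signs turned only for differences that were not called: Sult2a8 in KO against WT (0.00413 with median centring, 0.0283 without the 2 livers, -0.0438 to 0.0508 with 1 library left out), Ugt2a3 in RE against WT (-0.0338 with library weights, -0.000925 without the 2 livers, -0.0175 to 0.0252 with 1 library left out) and Ugt2b5 in RE against WT (-0.0348 to 0.00514 with 1 library left out). No share of all genes is given here for the summed families, the 2 livers left out or single libraries left out. In those settings a shift of the conjugation genes cannot be told from one over all genes. Depth limits the 15 genes not tested and Ugt1a10, which stayed near 1 FPKM or below.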

Other observations

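Gstp1 varied widely between livers of the same genotype and time. The deviations of Gstp1 from the group means were set beside those of the 42 other tested conjugation genes. They were also set beside those of 12 genes listed as growth hormone factors or genes with a male or female pattern. These choices were made after the values of Gstp1 were seen. Over these 162 relations, with livers permuted within groups and p-values adjusted over all of them, 3 conjugation genes passed in RE, 1 in KO and 2 in WT livers, and none in all 3 genotypes. A relation passed if the adjusted p of r was under 0.05. No share of all genes tested was computed for these relations. The counts are therefore not a result about the conjugation genes in particular. Gstk1 had r = -0.766 and rho = -0.804 in RE livers (exact permutation p 0.000536 and 0.000322, adjusted 0.0181 and 0.013, r -0.712 without the 2 livers farthest from the median). Gstt1 had r = -0.859 and rho = -0.862 in RE livers (exact permutation p 0.000557 and 0.000965, adjusted 0.0181 and 0.0247, r -0.817 without the 2 livers farthest from the median). Ugt2b1 had r = 0.837 and rho = 0.856 in RE livers (exact permutation p 0.000943 and 0.00186, adjusted 0.0255 and 0.0336, r 0.755 without the 2 livers farthest from the median). Ugt2b38 had r = 0.755 and rho = 0.746 in KO livers (exact permutation p 0.00276 and 0.00238, adjusted 0.0498 and 0.0385, r 0.786 without the 2 livers farthest from the median). Gstz1 had r = -0.761 and rho = -0.818 in WT livers (exact permutation p 0.00144 and 0.00122, adjusted 0.0332 and 0.0247, r -0.71 without the 2 livers farthest from the median). Ugt1a5 had r = -0.696 and rho = -0.796 in WT livers (exact permutation p 0.000171 and 0.000214, adjusted 0.00926 and 0.013, r -0.685 without the 2 livers farthest from the median). Of those 12 listed genes 3 passed on r, all in RE livers. On rho alone the adjusted p was also under 0.05 for Elovl3 in KO livers (rho 0.785, exact permutation, adjusted p 0.0247). The same held in WT livers for Cyp7b1 (rho 0.773, exact permutation, adjusted p 0.0498) and Ugt2b38 (rho 0.748, exact permutation, adjusted p 0.0498). Cyp7b1, higher in males, had r = 0.884 and rho = 0.868 in RE livers (exact permutation p 0.000107 and 0.00015, adjusted 0.00926 and 0.013, r 0.771 without the 2 livers farthest from the median). Elovl3, higher in males, had r = 0.79 and rho = 0.816 in RE livers (exact permutation p 0.00197 and 0.000257, adjusted 0.0399 and 0.013, r 0.619 without the 2 livers farthest from the median). Cyp2b9, higher in females, had r = -0.68 and rho = -0.779 in RE livers (exact permutation p 0.00015 and 0.00109, adjusted 0.00926 and 0.0247, r -0.634 without the 2 livers farthest from the median). The median of Cyp2b9 in RE livers was 0.115 FPKM, so many of its values there lay near 0. The sex of the mice is not given in the labels, and its part in these relations was not tested. Whether a relation differs between genotypes was not tested either.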
